A study of Mus musculus with 2 samples.

Results

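Binding of CTCF was described around 31 genes for transcription factors that specify later tissues, out of 21627 protein-coding genes of the mouse gene table used here. The genes were taken from a list of names and not by a cut on measured values, though earlier results of these data were known. They were 9 neural, 14 mesodermal, 4 blood and 4 endodermal factors. Each was examined with 100 kb on either side of its span, where a span runs from the first to the last base of the gene on mm10. The cells were E14TG2a.4, which are male embryonic stem cells derived from mouse strain 129/Ola, and the libraries were labelled as biological replicates 1 and 2 of a single group. No treatment, time course or second genotype stands in the labels, so regions were compared with one another and replicates with each other. The line comes from 1 donor, and nothing in the labels says that the replicates were grown from separate starting cultures. Embryonic stem cells are undifferentiated and have entered none of these lineages.

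CTCF is a DNA-binding protein with a row of zinc fingers that recognises a long, asymmetric motif. It marks insulators, which separate enhancers from the promoters of other genes, and it halts cohesin as cohesin extrudes chromatin loops. Loops form most often between CTCF sites whose motifs point towards each other, called convergent, and a pair of such sites can enclose a gene with its enhancers. The factors studied here are master regulators of differentiation. Most are under Polycomb control and little used in embryonic stem cells, and many are surrounded by wide stretches of enhancers that become active only in their tissue.

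The peaks counted were those of the conservative set, which are the peaks that the authors' test of irreproducible discovery rate, or IDR, kept in a comparison of the replicates. It held 43344 peaks on the autosomes and X. Each peak has a signal from the authors' peak caller on a scale that is not stated, so signals are also given as relative signal, the value in a replicate divided by that replicate's median over the matched peaks of the set. A peak was matched to a replicate where an entry of that replicate's own list had its summit within 100 bp. Mean and SD of relative signal are over the 2 replicates, and an SD of 2 values is a rough measure of spread. The files give no read counts, so the depth of the libraries is unknown. Peaks are not replicates of a condition, and with a single group no test between groups was possible.

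The sequences below show the best match to the CTCF motif in the strongest motif-bearing peak of each lineage. A match describes the sequence and is not evidence that CTCF touched these bases. They were read from the mm9 genome, the build for which genome sequence was used, under the peaks of the mm9 list. Each is 61 bases on the strand that carries the motif, 5′ to 3′, with the 19 bases that match the CTCF motif in capitals.

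Neurog1 (chr13:56391518-56391578, minus strand): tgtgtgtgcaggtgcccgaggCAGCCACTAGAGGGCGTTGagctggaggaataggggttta
Tbx6 (chr7:133965500-133965560, plus strand): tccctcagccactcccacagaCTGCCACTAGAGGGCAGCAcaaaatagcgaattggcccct
Tal1 (chr4:114758347-114758407, minus strand): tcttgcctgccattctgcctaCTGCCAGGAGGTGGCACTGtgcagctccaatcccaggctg
Hnf4a (chr2:163298424-163298484, minus strand): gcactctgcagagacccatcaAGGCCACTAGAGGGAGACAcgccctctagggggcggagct

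Places and distances here are those of the middle of each peak, not of the motif. The Neurog1 site lay in an intron of the neighbouring gene Cxcl14, 38.0 kb upstream of Neurog1. The Tbx6 site lay in an intron of Fam57b (Tlcd3b in the mm10 table), 40.5 kb downstream of the Tbx6 start. The Tal1 site lay between genes, 29.3 kb downstream of the Tal1 start with Pdzk1ip1 as the nearest gene. The middle of the Hnf4a peak lay in a coding exon of 2310001K24Rik, 34.02 kb upstream of Hnf4a. None of these 4 sites was in the factor gene itself. In the mm9 lists the fold enrichment of these peaks was 27.7 in replicate 1 and 23.7 in replicate 2 at Neurog1, and 33.0 and 34.3 at Tbx6. At Tal1 it was 28.3 and 19.4, and at Hnf4a 25.9 and 36.3, so the replicates lay further apart at these last sites than at Tbx6.

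All 31 genes had at least 1 conservative peak in their window, and the windows held 246 peaks in all, none counted for more than 1 gene. Among all protein-coding genes, 9.48% had none. The median was 7 peaks per window, which is also the median over all genes. Of the 31 factors, 13 had more peaks than that median, 14 had fewer and 4 were at it. Counted per 100 kb, the median was 3.20 peaks for the factors and 2.81 for all genes. The spread among the factors was wide: Pax6 and Isl1 had 1 peak each, and Tbx5 had 19. When the strongest entries of a single replicate's list were taken in the same number, the windows held 243 peaks with replicate 1 and 249 with replicate 2.

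**Figure D1:**
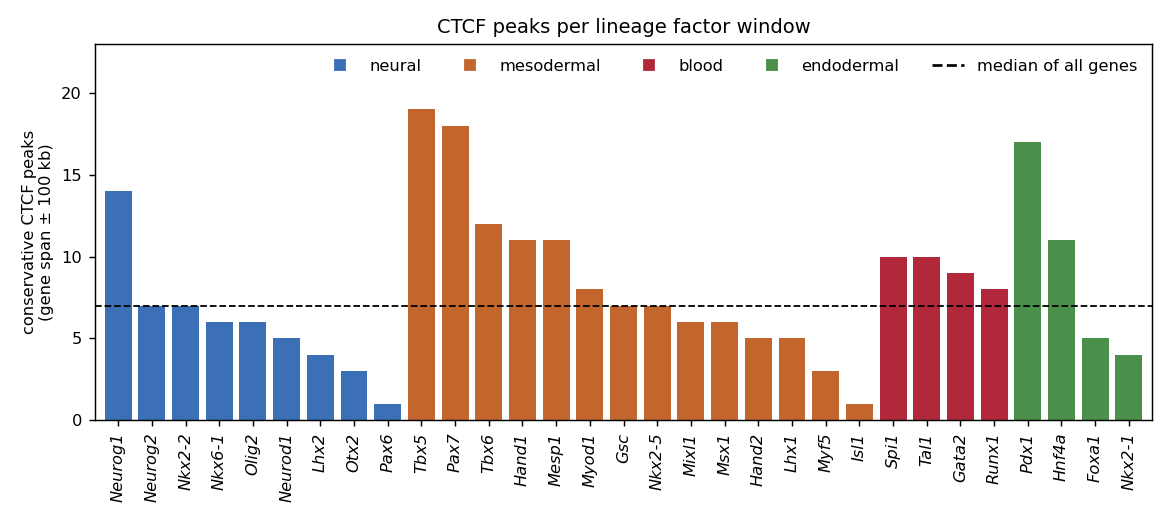
Number of conservative CTCF peaks in the span of each gene plus 100 kb on either side, as bars coloured by lineage, with the median of all protein-coding genes (7) as a dashed line. The 4 blood factors all stand above the line, while each other lineage has members on both sides of it.

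By lineage, the median was 6 peaks for neural factors, 7 for mesodermal, 9.5 for blood and 8 for endodermal factors. The 4 blood windows held between 8 and 10 peaks, the narrowest range of the lineages. Windows of longer genes are longer, and the blood factors had a median length of 24.4 kb against 5.53 kb for the neural factors. The part of gene length in these counts was not tested. The count of peaks also moved with the number of other genes in the window: over the 31 factors the rank correlation was 0.521, and over all genes it was 0.354, as a description without a test.

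Among the neural factors, Neurog1, which encodes a proneural basic helix-loop-helix protein, had the most peaks, 14 in its window. Both replicates alone also gave 14. These peaks flanked a gene of 1.70 kb on both sides, 7 upstream and 7 downstream, and 9 of the 14 had a mean relative signal above 1. The strongest, in Cxcl14, had relative signals of 2.56 and 2.11 in replicates 1 and 2 (2.33 ± 0.316, SD, n = 2). The nearest peaks stood 12.6 kb upstream and 5.68 kb downstream of the gene. Its relative Neurog2 had 7 peaks, of which 5 lay inside the neighbouring genes Larp7 and Zgrf1. The peak nearest to Neurog2 upstream, at 7.36 kb, was weak, with 0.278 in replicate 1 and 0.240 in replicate 2 (0.259 ± 0.027, SD, n = 2). The counts of these proneural genes, 14 against 7, were the same with replicate 2 alone and were 14 against 6 with replicate 1 alone.

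Pax6, the paired-box factor of eye, forebrain and spinal cord, had the fewest peaks, a single one. It lay 52.3 kb upstream (mm10, chr2:105616443-105616758) and was of modest strength, with relative signals of 0.700 and 0.505 in replicates 1 and 2 (0.602 ± 0.138, SD, n = 2). Downstream, the next conservative peak was 102 kb from the gene, so a stretch of 183 kb around Pax6 held no conservative peak. Of all protein-coding genes, 84.9% had more peaks in their window. Replicate 2 alone gave 2 peaks and replicate 1 alone gave 1.

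Otx2, the homeobox factor of forebrain and midbrain, had 3 peaks, all downstream of the gene. The strongest, 85.4 kb from the start, had relative signals of 1.13 and 0.736 in replicates 1 and 2 (0.931 ± 0.276, SD, n = 2). The nearest one, 47.1 kb from the start, was matched in replicate 2 only, with 0.492. Upstream of Otx2 no conservative peak was met for 112 kb. Lhx2, a LIM homeobox factor of forebrain and eye, was similar in having 4 peaks all downstream and none upstream for 391 kb, the longest such upstream gap of the 31. Its peaks were stronger than those of Otx2. The peak 90.8 kb downstream of its start, between genes, had 2.74 in replicate 1 and 3.28 in replicate 2 (3.01 ± 0.385, SD, n = 2), the highest of the neural windows.

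Olig2, the basic helix-loop-helix factor of motor neuron and oligodendrocyte precursors, was the neural factor with a peak at its promoter, taken as 1000 bp either side of the gene start. The summit was 679 bp upstream (mm10, chr16:91224713-91225028). Its relative signal was 0.601 and 0.638 in replicates 1 and 2 (0.619 ± 0.026, SD, n = 2), below the median peak of the set in both. A stronger peak lay 7.41 kb upstream, with 1.68 and 1.44 (1.56 ± 0.166, SD, n = 2). Downstream of Olig2 the nearest peak was 85.7 kb away, past Olig1. Nkx2-2, a homeobox factor of the ventral neural tube and pancreatic islets, had 5 of its 7 peaks inside its span of 18950 bp. The strongest of these 5 had 1.21 in replicate 1 and 1.26 in replicate 2 (1.23 ± 0.031, SD, n = 2), and the strongest of the window, 61.5 kb upstream, had 2.13 in both (2.13 ± 0.005, SD, n = 2). The RefSeq promoter sequence of Nkx2-2 lies within the span (mm10, chr2:147186353-147186652). The peak 1.68 kb inside the outer end of the span is upstream of that promoter, so inside the span does not mean past every start. Nkx6-1, also of the ventral neural tube, had 6 peaks with the nearest ones 5.01 kb upstream and 10.7 kb downstream. Neurod1, of differentiating neurons and endocrine cells, had 5, of which 3 lay inside Cerkl, and its strongest had 0.940 in replicate 1 and 1.35 in replicate 2 (1.15 ± 0.293, SD, n = 2).

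**Figure D2:**
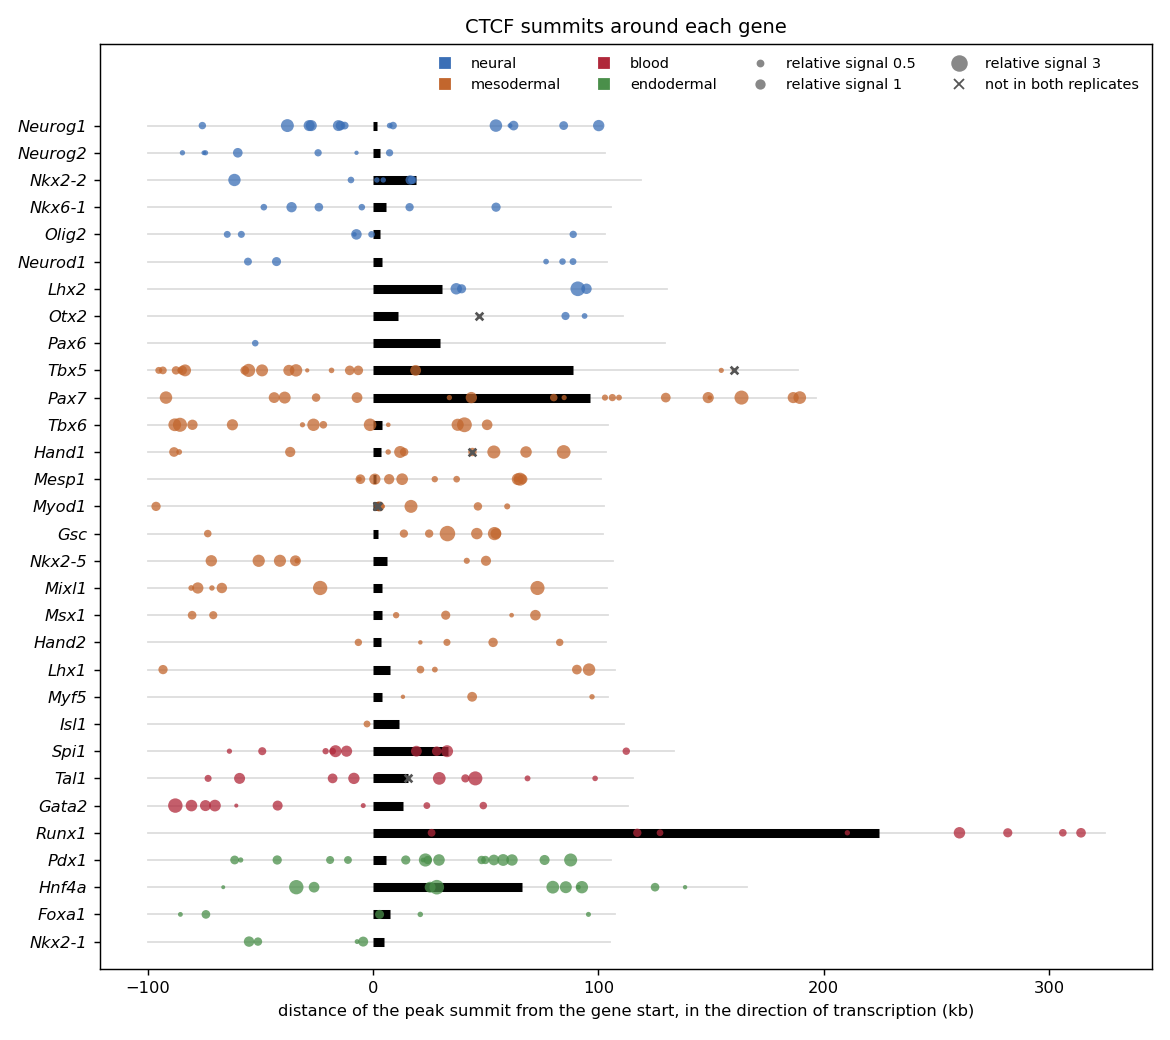
Position of each of the 246 conservative peak summits relative to the start of its gene, in kb along the direction of transcription, with 1 row per gene, the gene span as a black bar and the grey line as the window. Circle area follows the mean relative signal of the 2 replicates, and crosses are the 6 peaks without a match in both. Most circles lie off the black bars, and Pax6 and Isl1 have 1 circle each.

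Among the mesodermal factors, Tbx5, a T-box factor of heart and forelimb, had the most peaks of the 31 genes, 19, against 16 with each replicate alone. Only 2.42% of all genes had more. The peaks were placed unevenly: 15 lay upstream, towards the neighbouring T-box gene Tbx3, 1 lay inside the gene and 3 downstream. These places hold for the mm10 span of 88.7 kb. The mm9 span of Tbx5 is 50.6 kb, so distances from its start are not comparable between the builds, and a peak inside one span can lie outside the other. The strongest, 55.2 kb upstream, had relative signals of 2.47 and 2.36 in replicates 1 and 2 (2.41 ± 0.078, SD, n = 2). The 3 downstream peaks were among the weakest of the window, and the highest of them had 0.359 and 0.402 (0.380 ± 0.030, SD, n = 2). Pax7, a paired-box factor of muscle satellite cells and neural crest, followed with 18 peaks, 19 with replicate 2 alone and 17 with replicate 1 alone, so the order of Tbx5 and Pax7 depended on the list. Of the Pax7 peaks, 4 lay inside the gene, which spans 96.5 kb. The strongest, inside Tas1r2 and 163 kb from the Pax7 start, had 2.51 in replicate 1 and 3.00 in replicate 2 (2.76 ± 0.346, SD, n = 2).

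Isl1, the LIM homeobox factor of the second heart field and motor neurons, was the opposite case. Its single peak lay 2.70 kb upstream of the start (mm10, chr13:116312233-116312548), with relative signals of 0.832 and 0.488 in replicates 1 and 2 (0.660 ± 0.244, SD, n = 2). Downstream of Isl1 no conservative peak was met for 844 kb, the longest gap on either side of any of the 31 genes. No other protein-coding gene lay in its window. Each replicate alone also gave 1 peak.

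The myogenic factors Myod1 and Myf5 differed as well. Myod1 had 8 conservative peaks and Myf5 had 3. The summit nearest to Myod1 downstream was 93 bp past the end of the gene, with relative signals of 1.28 and 1.63 in replicates 1 and 2 (1.45 ± 0.245, SD, n = 2). This was the shortest distance from a gene's edge to a peak outside it. The strongest Myod1 peak, 16.8 kb downstream of the start on the side of Kcnc1, had 2.08 and 2.63 (2.36 ± 0.384, SD, n = 2). A pair of overlapping conservative entries lay inside Myod1, with summits 202 bp apart, and each was matched in 1 replicate only. Upstream the nearest peak was 96.3 kb away. At Myf5 the nearest peaks were 218 kb upstream and 9.22 kb downstream, and the strongest had 1.26 in replicate 1 and 1.43 in replicate 2 (1.35 ± 0.124, SD, n = 2).

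Of the heart factors, Nkx2-5 had 7 peaks, with none within 33.7 kb upstream or 35.2 kb downstream of the gene. Its strongest peak, 50.8 kb upstream, had relative signals of 2.32 and 1.88 in replicates 1 and 2 (2.10 ± 0.311, SD, n = 2). Hand1 had 11 peaks and Hand2 had 5. The strongest Hand1 peak, inside Galnt10, had 2.60 and 2.69 (2.64 ± 0.063, SD, n = 2), and the strongest Hand2 peak had 1.60 and 0.889 (1.24 ± 0.499, SD, n = 2). The strongest Hand1 peak was above the strongest Hand2 peak in both replicates, and their values did not overlap.

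Mesp1, a basic helix-loop-helix factor of early cardiac mesoderm, was the other of the 31 genes with a promoter peak. The summit was 773 bp inside the gene from its start (mm10, chr7:79792730-79792909), and its relative signal was 1.80 and 1.74 in replicates 1 and 2 (1.77 ± 0.038, SD, n = 2). It was higher than the Olig2 promoter peak in both replicates, and the values did not overlap. In the mm9 list the peak at this place was in the Mesp1 intron, with a fold enrichment of 19.3 in replicate 1 and 21.1 in replicate 2 (20.2 ± 1.32, SD, n = 2), and it held a motif 19 bases long, shown here because it is the site inside a member's promoter window, with the best conserved stretch of the motif in capitals.

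Mesp1 promoter site (mm9, chr7:86937701-86937719, plus strand): ccaACAGTAGGGGGCgcca

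The highest pooled signals were next to Gsc and Tbx6, factors of the gastrula. Gsc, the homeobox factor of the organizer, had the highest value, 33.0 kb downstream of its start on the side of Serpina3n (mm10, chr12:104440115-104440355). The relative signal there was 3.03 and 3.66 in replicates 1 and 2 (3.35 ± 0.449, SD, n = 2), rank 345 of the 43344 peaks. Tbx6, a T-box factor of presomitic mesoderm, had 12 peaks in the most gene-rich window of the 31, with 15 other genes. Its strongest, inside Tlcd3b, had 2.96 and 3.17 (3.07 ± 0.148, SD, n = 2), and 6 of the 12 were in the top decile of all peaks by signal. A strong Tbx6 peak also lay 1.34 kb upstream of the start, inside the span of Ypel3, with 2.16 and 2.26 (2.21 ± 0.074, SD, n = 2). Mixl1, a homeobox factor of the primitive streak, had 6 peaks, of which 2 were in the top decile. The one 23.5 kb upstream had 2.90 and 2.82 (2.86 ± 0.058, SD, n = 2), and the one 72.9 kb downstream of the start had 3.08 and 2.48 (2.78 ± 0.422, SD, n = 2). The Gsc peak was above the Tbx6 peak within each replicate, while the values of the replicates overlapped. Lhx1, of head organizer and kidney, had 5 peaks, 4 of them inside Aatf, and Msx1, of limb and craniofacial mesenchyme, had 6 of low to middling strength, the highest with 1.60 and 1.56 (1.58 ± 0.030, SD, n = 2).

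Among the blood factors, Tal1, a basic helix-loop-helix factor of blood specification, had 10 peaks. The strongest, 45.4 kb downstream of the start near Cyp4x1, had relative signals of 2.33 and 3.18 in replicates 1 and 2 (2.76 ± 0.601, SD, n = 2). The nearest peaks outside the gene were 8.52 kb upstream and 14.04 kb downstream. An entry inside Tal1 was weak and was matched in replicate 2 only, with 0.406. Spi1, which encodes PU.1 of myeloid and B cells, also had 10 peaks, 3 of them inside the gene. The one 32.8 kb from the start had 2.15 and 1.87 (2.01 ± 0.197, SD, n = 2). Gata2, the zinc-finger factor of blood stem and progenitor cells, had 9 peaks, of which 7 were upstream. The strongest, 87.8 kb upstream near Rpn1, had 3.15 and 2.67 (2.91 ± 0.338, SD, n = 2), while the nearest, 4.37 kb upstream, had only 0.283 and 0.415 (0.349 ± 0.093, SD, n = 2). Runx1, the runt-domain factor of blood stem cell emergence, is the longest gene of the set, 225 kb. It had 8 peaks, 4 inside the gene, and the nearest outside it were 173 kb upstream and 35.6 kb downstream. Its strongest, 260 kb from the start, had 1.90 and 1.77 (1.84 ± 0.093, SD, n = 2).

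Among the endodermal factors, Pdx1, the homeobox factor of pancreas and duodenum, had 17 peaks, 18 with replicate 2 alone and 17 with replicate 1 alone. Its window also holds Gsx1, Cdx2, Urad and Flt3, and 12 of the 17 peaks were downstream, on the side of Cdx2 and Flt3. It had the highest density of the 31 genes, 8.26 peaks per 100 kb. The strongest, 23.2 kb downstream of the start, had relative signals of 2.36 and 2.48 in replicates 1 and 2 (2.42 ± 0.087, SD, n = 2). Hnf4a, a nuclear receptor of liver, gut and kidney, had 11 peaks and a strong peak inside a factor gene. It lay 28.3 kb from the start (mm10, chr2:163534967-163535196), with 2.95 and 3.01 (2.98 ± 0.038, SD, n = 2). The peak 34.1 kb upstream near Fitm2 had 2.32 and 3.44 (2.88 ± 0.792, SD, n = 2), so these strong peaks did not differ beyond the spread of the replicates. Foxa1, a forkhead factor of endoderm-derived organs, had 5 peaks, the strongest of them inside the gene with 0.977 and 1.29 (1.13 ± 0.222, SD, n = 2). Nkx2-1, the homeobox factor of thyroid and lung, had 4, all upstream, with the nearest at 4.39 kb having 1.29 and 1.5 (1.39 ± 0.148, SD, n = 2). Downstream of Nkx2-1 no peak was met for 127 kb.

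A conservative summit lay within 1000 bp of the start at 2 of the 31 genes, Olig2 and Mesp1, against 9.64% of all protein-coding genes. The count was 3 with replicate 2 alone and 2 with replicate 1 alone. These starts are the outer ends of the gene spans. With the starts of the RefSeq promoter sequences, an alternative chosen after seeing the data, it was 3, with Foxa1 added. The conservative peak inside Foxa1, with relative signals of 0.977 and 1.29 in replicates 1 and 2, lay within 1000 bp of that start. Within 10 kb of the start the figures were 17 of 31 genes against 44.3%. The replicates' own lists also hold entries too weak for the conservative set. Entries in both lists lay within 1000 bp of the start at 8 of the 31 genes, against 17.8% of all genes. At 6 of these 8 no conservative peak was called within 1000 bp of the start of the span. These were Nkx2-5, Isl1, Hand1, Hand2, Tbx6 and Foxa1. The highest entry at their starts had relative signals from 0.143 at Tbx6 to 0.185 at Hand2 in replicate 1. In replicate 2 they ran from 0.127 at Tbx6 to 0.233 at Isl1, with Foxa1 apart at 0.591, a value near that of the Olig2 promoter peak but not seen in replicate 1, where Foxa1 had 0.149. A further 8 genes had an entry in 1 list only, and 15 had none in either list.

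A conservative summit inside the span was found at 10 of 31 genes, against 42.3% of all genes. The factors are short, with a median length of 5.75 kb against 17.3 kb for all genes, so the same count was made by length. Up to 5 kb it was 2 of 14 factors against 6.37% of genes, from 5 to 20 kb 3 of 10 against 31.5%, and above 20 kb 5 of 7 against 67.2%. In percent the factors were at 14.3%, 30.0% and 71.4% in these classes, on counts of 2, 3 and 5 genes. Of the 246 peaks, 24 lay inside the factor's own span, 108 upstream and 114 downstream. Outside the factors' spans, 56 peaks lay inside other genes and 166 between genes.

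The nearest conservative peak upstream of a factor lay at a median of 12.6 kb, with a range from 0.679 kb at Olig2 to 391 kb at Lhx2. Downstream the median was 13.5 kb, from 0.093 kb at Myod1 to 844 kb at Isl1. Over all genes the medians were 24.2 kb and 23.004 kb. The upstream median was 23.5 kb when replicate 1 alone was used, near that of all genes, and 12.6 kb with replicate 2 alone. The interval between the nearest peaks outside each gene had a median of 96.4 kb for the factors and 97.0 kb for all genes. It is not free of peaks where a summit lies inside the gene, as at 10 of the 31 factors. The upstream gap was the longer one at 15 factors and the downstream gap at 16.

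**Figure D3:**
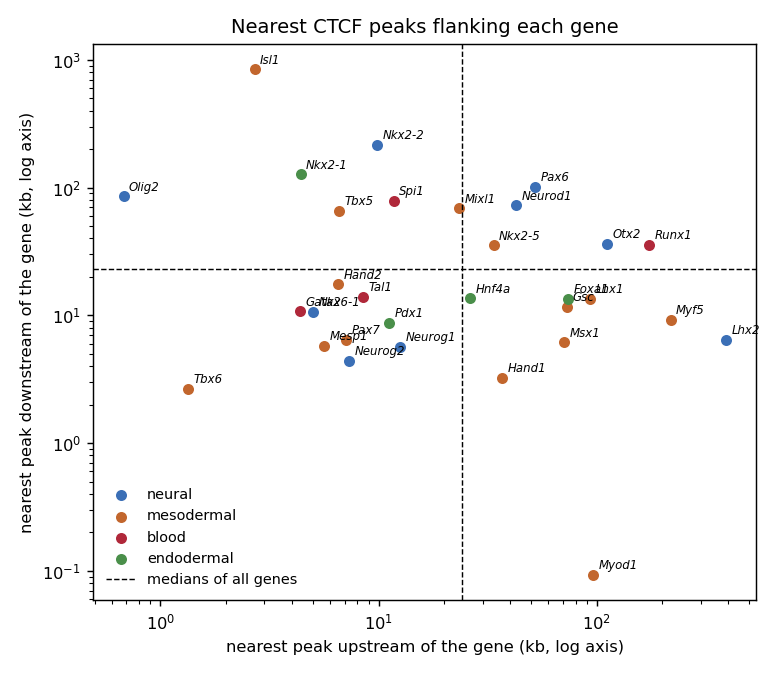
Distance from each gene to its nearest conservative peak upstream (horizontal, kb, log axis) and downstream (vertical, kb, log axis), 1 point per gene coloured by lineage, with dashed lines at the medians of all genes (24.2 kb and 23.004 kb). Isl1 at the top and Lhx2 at the right have the longest gaps, and Myod1 at the bottom has a peak 0.093 kb from its end.

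Nearly all peaks of the factors' windows were present in each replicate's own list. Of the 246 peaks, 240 were matched in both replicate lists, or 97.6% (exact 95% Clopper-Pearson interval 94.8% to 99.1%), against 95.5% of all conservative peaks. The interval covers counting error only. The conservative set was kept by comparing these same replicates, so the share and the correlation below are not independent measures of their agreement. Of the 6 others, 4 belonged to 3 pairs of overlapping entries at Hand1, Myod1 and Tbx5. Relative signals in the replicates had a rank correlation of 0.923 over the 240 peaks, given as a description since neighbouring peaks share a library. They differed by more than 1.5-fold at 38 peaks, which is 15.8% against 17.4% of all peaks. The difference was more than 2-fold at 5, which is 2.08% against 3.20% of all peaks.

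The median relative signal was 1.11 over the factors' peaks and 1.00 over all conservative peaks. In each replicate alone it was 1.08 and 1.08. By lineage it was 0.822 for neural, 1.29 for mesodermal, 1.07 for blood and 1.13 for endodermal windows. Neural windows had the lowest median in both replicates, 0.725 and 0.858, and mesodermal windows had the highest, 1.25 and 1.27. Endodermal windows were close to the mesodermal ones in replicate 1, at 1.24, and had 1.10 in replicate 2. Of the factors' peaks, 34 were in the top decile of all conservative peaks by pooled signal, 13.8%. Among the strongest 1000 of the 43344 peaks were 9. In the top decile were 21 of 119 mesodermal, 6 of 37 endodermal, 3 of 37 blood and 4 of 53 neural peaks. Several peaks share a window, and 6 of the 21 came from that of Tbx6 alone.

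**Figure D4:**
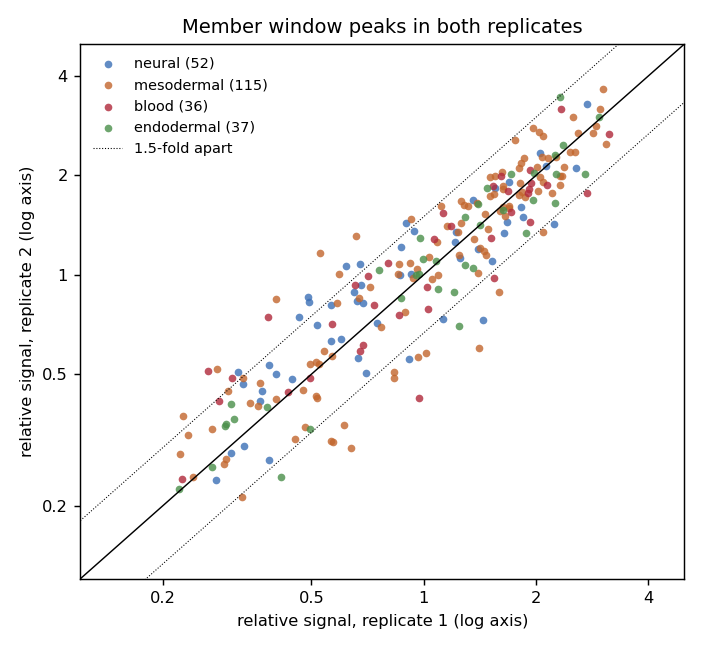
Relative signal in replicate 1 (horizontal) against replicate 2 (vertical), both on log axes, for the 240 peaks matched in both replicates, coloured by lineage, with the diagonal as a solid line and 1.5-fold differences as dotted lines. Most points lie between the dotted lines, and 38 lie outside them.

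The motif was examined on mm9, where a matrix of 19 positions was learned without a template from the strongest peaks of 5 chromosomes that hold none of the 31 genes. Its consensus, with bases of a frequency of at least 50% written out, was NNGCCANNAGAGGGCNNNN, searched on both strands within 100 bp of the middle of each peak. A match needed the score that 1% of flanking windows reach. Of 212 factor peaks in the mm9 list, 111 held a match, or 52.4% (exact 95% interval 45.4% to 59.2%), against 50.8% of all peaks on the same chromosomes. A match is a description of the sequence, not evidence of contact. The share was 44.4% in neural, 56.9% in mesodermal, 45.5% in blood and 56.3% in endodermal windows, and these intervals overlapped. At 5 genes no peak held a match at this score: Neurod1 with 5 peaks, Lhx2 with 4, Pax6 with 3, Myf5 with 2 and Isl1 with 1, while at Pdx1 11 of 15 and at Hand1 10 of 12 did. The strongest Gsc peak held none either, with a best score of 14.6 bits against the 16.8 bits required. The best scores at the 5 genes were 16.7 bits at Neurod1, 16.6 at Pax6, 16.1 at Lhx2, 15.0 at Isl1 and 14.9 at Myf5, some just below that score. The share of all genes without a match was not counted, so the 5 genes cannot be set against a background.

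The 111 matches comprised 106 different 19-base sequences, and 1 sequence recurred. It is shown here because it stood in 6 peaks of 5 genes from all 4 lineages, with the best conserved stretch in capitals.

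Recurring site: aggCCAGAAGAGGGCatca

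On mm9 it was found at Otx2 (chr14:49240186-49240204, plus strand), Foxa1 (chr12:58553433-58553451, plus strand), Gata2 (chr6:88167715-88167733, minus strand), Neurog1 (chr13:56344668-56344686, minus strand) and at 2 places upstream of Tbx5 (chr5:120189565-120189583, plus strand, and chr5:120209118-120209136, minus strand). Identical sequence did not come with equal strength. Fold enrichment at the Tbx5 site on the minus strand, 75.5 kb upstream of the shorter mm9 span, was 26.1 in replicate 1 and 17.1 in replicate 2, and at Gata2 it was 8.45 and 8.57. The Otx2 and Foxa1 peaks were called in replicate 2 only, with 6.28 and 7.71. Among all motif-bearing peaks of the mm9 list the same 19 bases stood in 506 of 19870, or 2.55%. Among those of the factors the share was 5.41%. The sequence was picked because it recurred among the factors' peaks, which raises the latter share, so these shares do not measure enrichment. Annotation of repeats was not used here.

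The strand of the motif on either side of a gene says whether its flanking sites point towards each other. For each factor the nearest motif-bearing peak beyond each end of the gene was taken on mm9, with the mm9 span, whose length differs from the mm10 span by over 1 kb at 7 of the 31 genes. The pair was convergent at 12 of 31 factors, against 26.6% of all genes. It was divergent, pointing away from each other, at 5, against 24.8% of all genes. It was tandem, both on the same strand, at 14, against 48.6% of all genes. Convergent pairs flanked Pax6, Olig2, Nkx2-2, Nkx6-1 and Otx2 among 9 neural factors, Myf5, Pax7, Tbx5, Nkx2-5 and Msx1 among 14 mesodermal ones, Runx1 and Gata2 among 4 blood factors, and none of the 4 endodermal ones. The count was 14 with the mm9 list of replicate 1 alone and 12 with that of replicate 2 alone. At the score of 0.1% of flanking windows it was 6, and at that of 5% it was 15. With motifs within 200 bp of the midpoint, at a required score of 19.7 bits, it was 12. The count thus fell at the score of 0.1%, and with 31 genes it was not tested against the background. Over all orientations together, the interval between the pair had a median of 138 kb for the factors and 176 kb for all genes. The longest was at Isl1, 1922 kb. Among convergent pairs alone the order was reversed, with a median of 275 kb for the factors and 198 kb for all genes. Divergent pairs had 114 kb at the factors and 165 kb at all genes, and tandem pairs 137 kb and 169 kb.

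The 4 shortest convergent pairs are printed as examples of motifs that face each other across a gene, the first site of each at the lower coordinate and on the plus strand, the other on the minus strand. Each is 19 bases on mm9, read along its own strand, with the best conserved stretch in capitals, and the shortest divergent pair, at Neurog1, follows for contrast with its strands reversed.

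Nkx6-1 left (chr5:102077546-102077564, plus strand): aggCCTGCAGGGGGCgcac
Nkx6-1 right (chr5:102098660-102098678, minus strand): attCCACAAGAGGGCgata
Gata2 left (chr6:88101519-88101537, plus strand): aagCCAGAAGAGGGCatca
Gata2 right (chr6:88167715-88167733, minus strand): aggCCAGAAGAGGGCatca
Nkx2-5 left (chr17:26940389-26940407, plus strand): aggCCAGCAGAGGGCagag
Nkx2-5 right (chr17:27023240-27023258, minus strand): tggCCACGAGAGGGCagca
Pax7 left (chr4:139286587-139286605, plus strand): aagCCAGAAGGGGGCgtca
Pax7 right (chr4:139396557-139396575, minus strand): aagCCAGAAGAGGGCgtca
Neurog1 left (chr13:56346128-56346146, minus strand): acaCCAGAAGAGGGCgctg
Neurog1 right (chr13:56366122-56366140, plus strand): acaCCAGAAGAGGGCacca

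The middle of the peak lay between genes at all 10 sites. The Nkx6-1 pair enclosed 21.2 kb and was the tightest of the convergent pairs. Its left peak had a fold enrichment of 11.6 in replicate 1 and 11.4 in replicate 2, while its right peak was called in replicate 2 only, with 9.14. The Gata2 pair enclosed 66.2 kb, with 17.7 and 16.3 at the left peak and 8.45 and 8.57 at the right one. The Nkx2-5 pair enclosed 82.9 kb and was uneven: the left peak had 5.54 and 7.43 and the right peak 21.1 and 24.6. The Pax7 pair enclosed the whole gene within 110 kb, and its left peak was called in replicate 2 only, with 8, while its right peak had 16.9 and 18.6. At Gata2 and Nkx2-5, where both lists had all values, the sites of a pair differed in strength by more than the spread between replicates. The Neurog1 pair enclosed 20.0 kb, with 5.76 and 7.59 at the left peak and 9.24 and 11.7 at the right one.

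**Figure D5:**
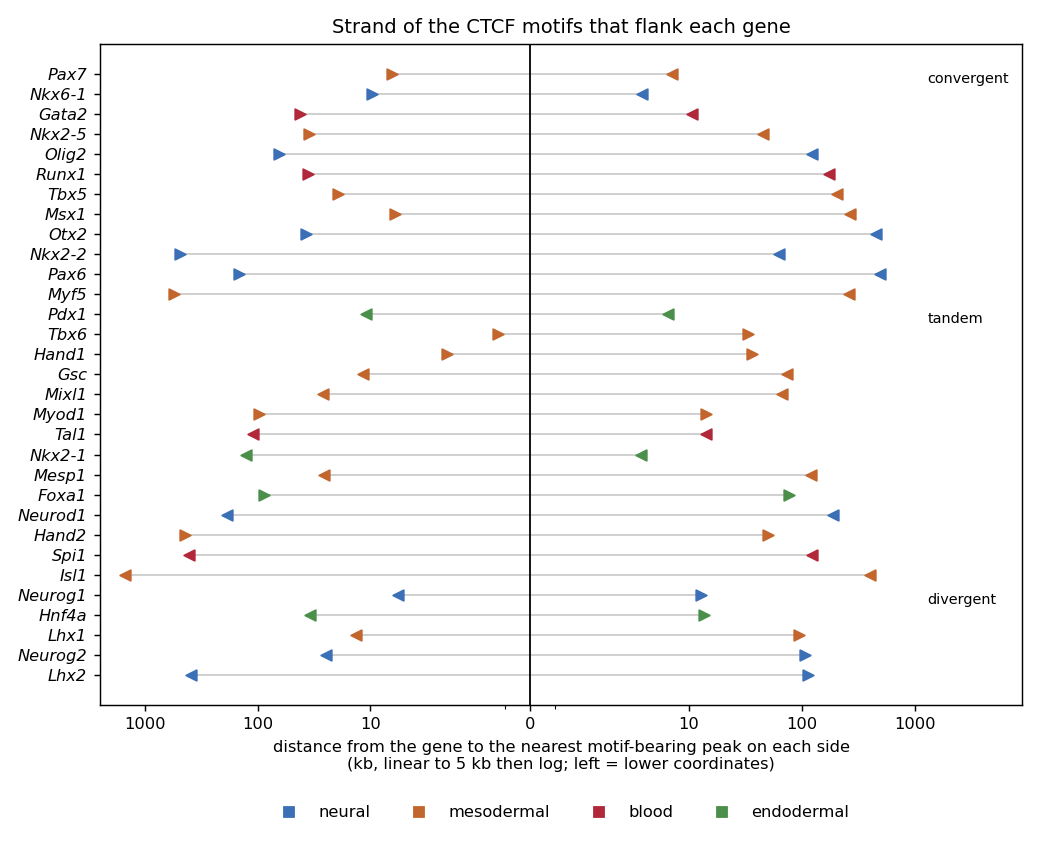
Distance from each gene to the nearest motif-bearing mm9 peak at lower coordinates (left) and at higher coordinates (right), in kb on an axis that is linear to 5 kb and logarithmic beyond, with 1 row per gene. Each triangle points in the direction of its motif and is coloured by lineage, and rows are grouped into 12 convergent, 14 tandem and 5 divergent pairs.

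The promoters themselves were read from 300-base sequences of RefSeq (GRCm38.p6), 250 bases before to 50 after a start, which matched 26 of the 31 genes with 35 starts. Myod1, Tbx5, Hand1, Mixl1 and Spi1 had no entry. None of the 35 held the CTCF motif on either strand at the same score, against 1.49% of 32851 promoter sequences. No match says only that these letters are not in this window. The ratio of observed to expected CpG in these promoters had a median of 0.760, against 0.384 over all sequences of the table. It ranged from 0.137 at 1 start of Runx1 to 1.18 at Nkx6-1. On mm9, with every annotated start in use, a peak lay within 1000 bp of a start at 3 of the 31 genes, Olig2, Mesp1 and Foxa1, against 12.6% of genes. At Foxa1 the fold enrichment was 13.2 in replicate 1 and 13.4 in replicate 2 (13.3 ± 0.156, SD, n = 2), and at Olig2 it was 7.13 and 7.43 (7.28 ± 0.212, SD, n = 2).

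For comparison, 60 other factors of the same 4 lineages, 15 each, had 457 peaks in their windows, with a median of 6. The lists are not fully separate: Olig1, Mesp2 and Myf6 are neighbours of Olig2, Mesp1 and Myf5, and 17 peaks lay in windows of both lists. Without these 3 genes the median was also 6. Of all 60 factors, 26 had more than the median of all genes and 31 had fewer. Over the same 60 the median was 5 for neural, 5 for mesodermal, 11 for blood and 7 for endodermal genes. Blood factors thus had the highest median in both lists of genes. The highest and lowest were Lmx1b with 26 and Sox1 with 2 among neural factors, and Meox1 with 17 against Foxc1 and Osr1 with 1 each among mesodermal ones. Among blood factors they were Klf1 with 20 and Gfi1 with 1, and among endodermal ones Foxa3 with 13 and Rfx6 with 2. A promoter peak was found at 2 of the 60, Cebpa and Gfi1b, and a peak inside the gene at 20.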

How the data were processed

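Peak lists of CTCF ChIP-seq from 2 biological replicates were analysed. The deposited mm10 lists give a signal per peak for each replicate, for the pooled alignments and for the conservative and optimal IDR sets, per the file headers and labels. The authors' mm9 lists give a fold enrichment, a ratio, per peak. The sources used here do not name the peak caller, the aligner, the IDR threshold or the depth. No values were tested between groups.

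Conservative summits were counted in each gene span plus 100 kb, and nearest summits, relative signals (matched within 100 bp) and promoter peaks (1000 bp) were computed with Python 3.11.15, numpy 2.4.6, pandas 2.3.3 and scipy 1.17.1. Spans came from a RefSeq table of GRCm38.p6. Strands came from its promoter table for 26 factors and from GENCODE vM1 for 5, and where both gave a strand they matched for 99.7% of 16294 genes. Genome sequence was used on mm9 only, so motif work used the mm9 peaks, with midpoints for summits. No coordinates were converted between builds. The motif was learned by expectation maximisation on 5000 peaks in windows of 201 bp. Window counting, matching and the motif model were tested on simulated data.

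The members and lists were chosen with earlier results of these data known. By rule all 31 genes were accounted for, with full values for extremes, promoter peaks and well-known factors, and other factors were named by most and fewest peaks. Alternatives covered the peak set, the flank, the promoter and matching distances, the motif score and leaving out each replicate.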

Additional observations from a re-analysis of the deposited data

How the results depend on the processing

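Across 10 results and 53 alternatives, 28 values stayed near the reported one and 25 moved. With only peaks of at least the median signal, the windows held 134 peaks, a median of 4 per window and 1 promoter peak, and the nearest peaks lay at a median of 42555 bp upstream and 49710 bp downstream. Flanks of 50 kb gave 144 peaks, a median of 4 and a median relative signal of 1.13, and flanks of 200 kb gave 418, 14 and 1.04. Promoter peaks numbered 0 within 500 bp and 5 within 2000 bp. The median relative signal was 1.10 in the optimal set and 1.12 with matching within 50 bp or 200 bp, and matching within 50 bp left 91.1% of peaks in both replicates. Leaving out 1 replicate gave an upstream median of 12589 to 23491 bp, a downstream median of 13540 to 13544 bp and a relative signal of 1.08 to 1.08. The share of peaks with the motif was 21.2% at the score of 0.1% of flanking windows, with 6 convergent pairs, and 81.6% at 5%, with 15. Within 200 bp of the midpoint, an alternative chosen after seeing the data, the required score was 19.7 bits instead of 16.8 bits. The share was then 36.8%, against 33.2% of all peaks on the same chromosomes, with 12 convergent pairs. The causes were not tested. No paired analysis was possible because there is a single group. Depth is unknown, so a gap without peaks means that none passed the authors' threshold, and weaker binding there was not measured.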
